A study of Danio rerio with 6 samples.

Results

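The translation initiation and elongation factors of zebrafish were taken by name, as the entries of the deposited gene table whose symbol starts with eif, eef1 or eef2. The name rule took 103 entries, of which 4 had a mean of 0 over the 6 libraries. The other 99 entries, of 23956 with a mean above 0, carry 82 symbols, because 17 symbols have 2 entries each. The counts of 95 members were rebuilt from the transcript rows, and 4 members had reads in 1 library alone. Of the 99 members 86 passed the filter on low counts and were tested, and the other 13 are described by their reads. The rule uses names and presence, not the difference between genotypes, but this part was chosen with earlier results of these data known. From these same libraries the study had already listed a translation factor set as enriched in tlr2+/+ larvae. It listed ribosomal sets, and also sets named for translation initiation and translation elongation, as enriched in tlr2-/- larvae. The directions of the factors and of the ribosomal proteins below are therefore not independent evidence.

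RNA of whole larvae at 5 days post-fertilization (dpf) was sequenced from 3 tlr2-/- samples and 3 tlr2+/+ samples, all unchallenged. The tlr2-/- fish are homozygous for the sa19423 allele, which was made by ENU mutagenesis and outcrossed repeatedly to ABTL wild type fish, and the tlr2+/+ larvae are its wild type control. The larvae came from single crosses of parents of 1 genotype, so alleles that the parents of a genotype share cannot be told apart from the mutation, and the p-values cover the spread among these 6 samples alone. tlr2 encodes a receptor of innate immunity. In whole larvae, fewer cells of a type and less RNA per cell cannot be told apart.

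Protein synthesis starts when the GTPase eIF2 brings the initiator tRNA to the small ribosomal subunit, with eIF1, eIF1A, eIF5 and the many-subunit scaffold eIF3. The cap-binding protein eIF4E, the scaffold eIF4G and the helicase eIF4A load the mRNA, and eIF5B joins the large subunit. During elongation eEF1A delivers each aminoacyl-tRNA, eEF1B recharges eEF1A with GTP, and eEF2 moves the ribosome along the mRNA. Kinases of eIF2 and eEF2 slow these steps in stressed or starved cells, and in vertebrates the mRNAs of many of these factors are themselves translated under the control of the mTOR kinase. The roles given here are known mainly from yeast and mammals.

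The libraries differed in depth, in the genes detected and in scaling, also within the tlr2+/+ genotype. They held 22583146, 24088390 and 17854737 assigned reads in tlr2-/- replicates 1, 2 and 3, against 30584310, 19828367 and 33403126 in tlr2+/+ replicates 1, 2 and 3, and values below are always given in the order of these replicates. The genes with at least 10 reads numbered 17415, 15719 and 16115 in tlr2-/- libraries 1, 2 and 3, against 13089, 12017 and 20061 in tlr2+/+ libraries 1, 2 and 3, so tlr2+/+ replicates 1 and 2 detected the fewest genes and tlr2+/+ replicate 3 the most. The TMM scaling factor, which sets the common scale of CPM (reads of a gene over the scaled library size), was 1.59 in tlr2+/+ replicate 3 and between 0.789 and 0.983 in the other 5 libraries. Both entries of tlr2 had 0 reads in all 6 libraries, which allows up to 0.0567 to 0.183 CPM (3 counts a library, counting error only), so tlr2 could not check the labels. Of 36 markers of 9 tissues 35 were detected in every library, and apoa4a of intestine was at 0 in 1 or more. Summed photoreceptor markers reached 10793 to 13594 CPM in tlr2-/- libraries and 3802 to 6997 CPM in tlr2+/+ libraries, and the summed markers of the other 8 tissues overlapped between genotypes. Most of the photoreceptor sum was rho, and without it (a sum chosen after the data were seen) the sums overlapped, at 853 to 1409.5 CPM in tlr2-/- libraries and 888 to 1310.3 CPM in tlr2+/+ libraries. The part of these differences in the results was not tested.

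Together the members made up 4.46, 3.85 and 4.22 percent of assigned reads in the tlr2-/- libraries, against 4.64, 4.21 and 4.25 percent in the tlr2+/+ libraries. On the TPM scale (a level per transcript length, scaled to the same total in each library) the members summed to 20226, 16717 and 17698 TPM in the tlr2-/- libraries, against 22497, 20158 and 24799 TPM in the tlr2+/+ libraries. The lowest tlr2+/+ sum and the highest tlr2-/- sum lay close together, and the genotypes overlapped. The eEF1A class led with 9155, 6860.1 and 7397 TPM in the tlr2-/- libraries, against 10152, 8517 and 10150.3 TPM in the tlr2+/+ libraries, followed by eEF2, eEF1B and eIF3, while the eIF2 kinases summed to 0.422, 1.29 and 1.46 TPM in the tlr2-/- libraries, against 3.97, 4.15 and 3.73 TPM in the tlr2+/+ libraries. Summed TPM did not overlap between genotypes for eIF2, eIF3, eEF1B, eIF4A with eIF4B and eIF4H, eIF4E, eIF4G, eEF2 modifiers and eIF2 kinases, and in each it was lower in every tlr2-/- library. Summed CPM overlapped for 5 of these 8, eIF3, eEF1B, eIF4A with eIF4B and eIF4H, eIF4E and eIF4G. All genes leaned lower on the TPM scale too, with a log2 difference below 0 for 65%. As single entries, 12.9% of all genes tested were lower and 2.53% higher without overlap in TPM. The share over summed classes of other genes was not counted. Of the 4 most abundant classes eEF2 alone had a higher mean TPM in tlr2-/- larvae, at 3752 ± 137 TPM, against 3356 ± 324 TPM in tlr2+/+ larvae (SD, n = 3 each), and its summed CPM was higher in every tlr2-/- library.

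**Figure D1:**
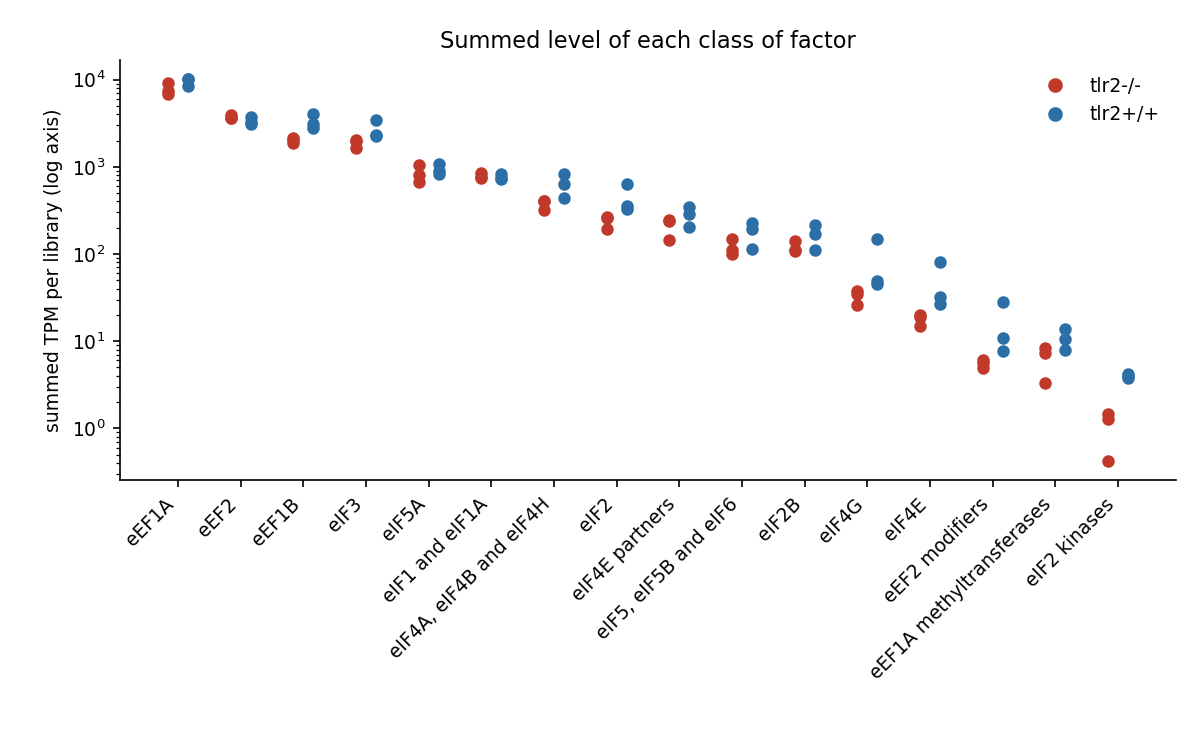
Summed TPM of each class of factor in each library (y axis, log scale), with tlr2-/- libraries in red on the left and tlr2+/+ libraries in blue on the right of each class (points are libraries, 3 per genotype). The classes run from eEF1A, at 6860.1 to 10152 TPM, to the eIF2 kinases, at 0.422 to 4.15 TPM.

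No member passed the test between genotypes. edgeR's quasi-likelihood test, adjusted with the Benjamini-Hochberg method over all 16776 genes tested, called 0 of 86 members at an adjusted p under 0.05 and 1 gene in all, which is 0.00596% of genes. The smallest adjusted p of any member was 0.9998. At an unadjusted p under 0.05 there were 8 members lower in tlr2-/- larvae, or 9.30% of those tested, beside 1.99% of all genes, and 0 members higher, beside 1.73% of all genes. DESeq2's Wald test called 1 member, an entry of eif2ak1, and 30 genes, or 0.186% of the genes it adjusted. The common biological coefficient of variation was 1.05, so that single fold changes of lowly expressed members have wide errors.

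The direction of the fold changes leaned to lower levels in tlr2-/- larvae. The log2 fold change, tlr2-/- over tlr2+/+, was negative for 57 of 86 members, or 66.3%, beside 48.9% of all genes, and its median was -0.22 for the members beside 0.024 for all genes. CPM of the genotypes did not overlap for 14 members that were lower in tlr2-/- larvae, 16.3% of those tested beside 6.2% of all genes. For 6 members every tlr2-/- library was higher, 6.98% beside 6.87% of all genes. Without tlr2+/+ replicate 3, a count made after the data were seen, 23 members did not overlap and were lower, 26.7% beside 11.3% of genes, and 12 were higher, 14% beside 25.1%. Against tlr2+/+ replicate 3 alone, 8 members were lower at an unadjusted p under 0.05, 8.60% beside 2.65% of genes, and 13 were higher, 14% beside 8.39%, with a median of -0.16 for the members and -0.083 for all genes.

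**Figure D2:**
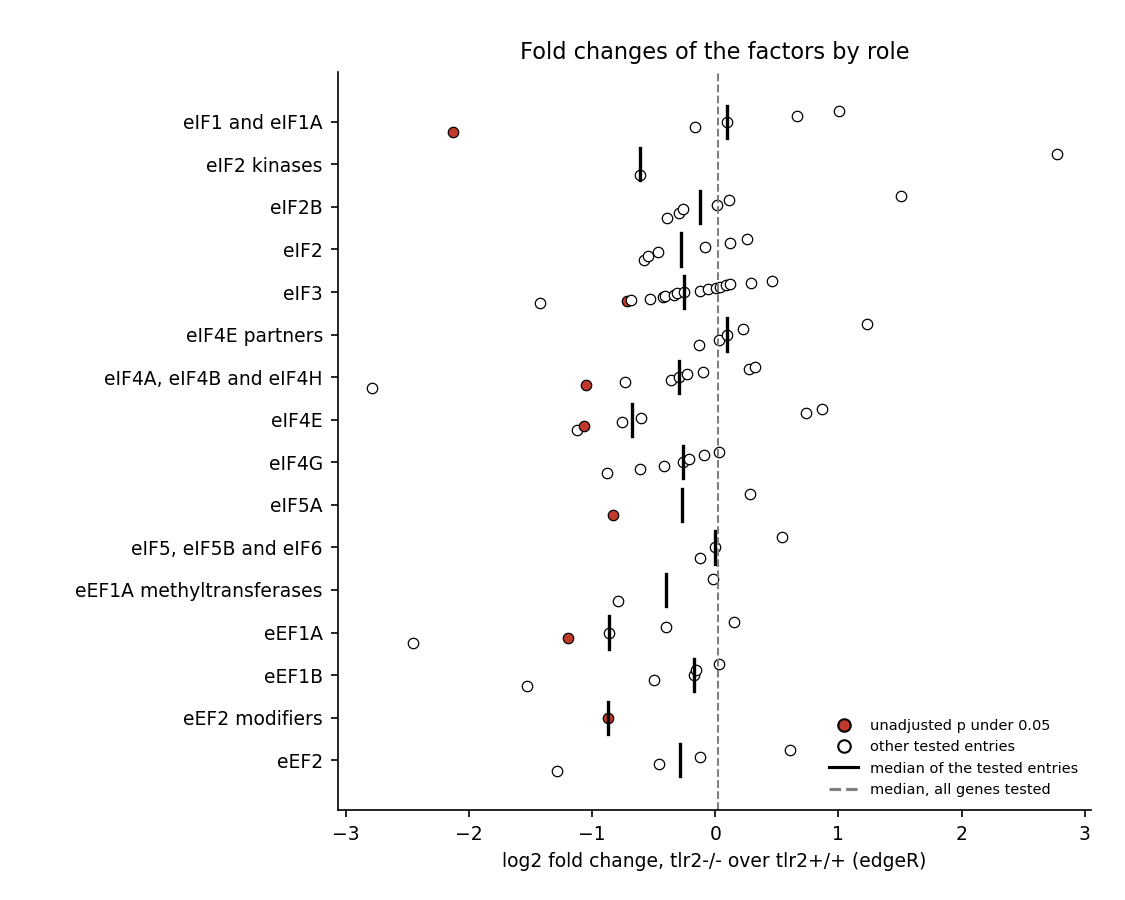
Log2 fold change of each tested member, tlr2-/- over tlr2+/+ (x axis, edgeR), by role (rows), with filled points for the entries of unadjusted p under 0.05, a black bar for the median of the tested entries of the role and a dashed line at the median of all genes tested, 0.024. The eif2ak1 entry with reads in tlr2+/+ libraries only, at -9.81, is not drawn but counts in its median, and the 7 drawn entries of unadjusted p under 0.05 all lie left of the line.

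The 5 groups had median log2 fold changes of -0.28 for eif2, -0.12 for eif2b, -0.25 for eif3, -0.23 for eif4 and -0.45 for eef1. Negative values were found for 4 of 6 eif2, 3 of 6 eif2b, 11 of 17 eif3, 18 of 27 eif4 and 10 of 12 eef1 entries tested. For all members and the eef1 group, and by a narrow margin for eif4, the median deviation of log2(CPM + 0.5) from the mean of 6 libraries was lower in every tlr2-/- library, unlike that of all genes. It was -0.267, -0.193 and -0.146 for eef1 in the tlr2-/- libraries, against 0.217, 0.419 and 0.0388 in the tlr2+/+ libraries. The eef1 median was -0.10 without tlr2+/+ replicate 2 and 0.039 against tlr2+/+ replicate 3 alone. The eif2b median was 0.058 without tlr2+/+ replicate 1, 0.30 without tlr2+/+ replicate 2, 0.070 without tlr2-/- replicate 2 and 0.76 against tlr2+/+ replicate 3 alone. It was -0.27 without tlr2+/+ replicate 3, -0.029 without tlr2-/- replicate 1 and -0.24 without tlr2-/- replicate 3, so its sign depended on the libraries used. The eif2 median was -0.012 with length offsets, 0.11 with a replicate block, -0.093 without tlr2+/+ replicate 2, -0.066 without tlr2+/+ replicate 3, -0.14 without tlr2-/- replicate 2 and -0.43 without tlr2-/- replicate 3. The eif4 median was -0.093 without tlr2+/+ replicate 1 and -0.087 without tlr2+/+ replicate 3, and the eif3 median -0.15 without tlr2-/- replicate 1.

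**Figure D3:**
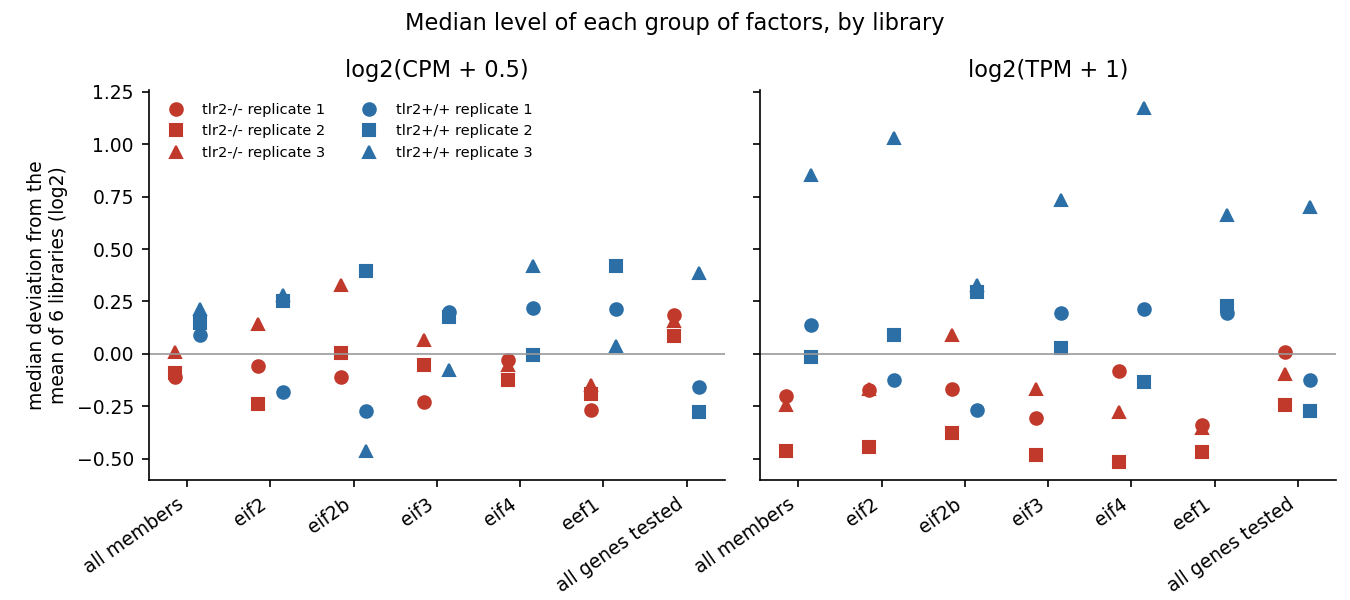
Median deviation of the tested members from their mean over 6 libraries (y axis, log2) for all members, the 5 groups and all genes tested, on the log2(CPM + 0.5) scale (left) and the log2(TPM + 1) scale (right), with 1 symbol per library, tlr2-/- in red left of tlr2+/+ in blue. On the TPM scale tlr2+/+ replicate 3 is the highest library, at 0.85 for the members and 0.70 for all genes.

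The size of the lean depended on the scale. On log2(TPM + 1), limma-trend gave a median difference of -0.59 for the members and -0.22 for all genes, and thus -0.37 relative to all genes, while the same difference of medians was -0.24 in edgeR on counts. With limma-trend 24 members were lower at an unadjusted p under 0.05, 27.9% beside 7.04% of all genes, 0 were higher beside 1.35%, and 0 passed an adjusted p under 0.05 beside 0.0417%. The TPM difference was below 0 for 75 of 86 members, 87.2% beside 65% of all genes. TPM did not overlap for 25 members lower in tlr2-/- larvae, 29.1% beside 12.9%, and for 0 higher, beside 2.53%. Without tlr2+/+ replicate 3, limma-trend gave a median of -0.35 for the members and 0.058 for all genes, with 12 members lower at an unadjusted p under 0.05, 14% beside 6.15% of genes, and 4 higher, 4.65% beside 8.89%.

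Of the eEF1A class, the carriers of aminoacyl-tRNA, eef1a1a (ENSDARG00000039502) had the smallest p. It had 63.1, 40.8 and 79.3 CPM in the tlr2-/- libraries, against 129.8, 172 and 118 CPM in the tlr2+/+ libraries, so that every tlr2-/- library was lower and the genotypes did not overlap. Its log2 fold change was -1.19 ± 0.36 (SE), with an unadjusted p of 0.00599 and an adjusted p of 0.9998 in edgeR. It was lower in 3 of 3 tlr2-/- libraries, and the fold change stayed between -1.43 and -0.97 when each library was left out, with an unadjusted p under 0.05 each time. In TPM it had 25.5, 13.1 and 29.6 TPM in the tlr2-/- libraries, against 57.2, 66.4 and 90.03 TPM in the tlr2+/+ libraries, also without overlap. The study named eef1a1a from these same libraries, so its direction here is not independent evidence.

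The class is carried almost wholly by eef1a1l1 (ENSDARG00000020850), the main eEF1A mRNA of the larva. It had 9125, 6843 and 7361 TPM in the tlr2-/- libraries, against 10087, 8439 and 10046 TPM in the tlr2+/+ libraries, and on the CPM scale 19753, 18722 and 17969 CPM in the tlr2-/- libraries, against 20736, 19229 and 10954 CPM in the tlr2+/+ libraries, where tlr2+/+ replicate 3 was well below the other 5 libraries and the genotypes overlapped. The log2 fold change was 0.15 ± 0.42 (SE, unadjusted p = 0.732), and its sign was negative on the TPM scale and without tlr2+/+ replicate 3. eef1a1b (ENSDARG00000069951) and eef1a2 (ENSDARG00000006838), which in mammals is the muscle and nerve form, had log2 fold changes of -0.40 ± 0.58 (SE) and -2.45 ± 2.51 (SE), and both overlapped. eef1a2 was near the limit of detection, with 0.138, 0 and 0.976 CPM in the tlr2-/- libraries, against 5.07, 0 and 1.06 CPM in the tlr2+/+ libraries.

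The share of eef1a1a in the summed TPM of the eEF1A entries does not depend on the scaling between libraries. It was 0.278, 0.191 and 0.400 percent in the tlr2-/- libraries, against 0.563, 0.780 and 0.887 percent in the tlr2+/+ libraries, which did not overlap, with a mean difference of -0.453 percentage points beside a pooled SD of 0.138. The share of eef1a1l1 was accordingly higher in tlr2-/- larvae, at 99.7, 99.7 and 99.5 percent in the tlr2-/- libraries, against 99.4, 99.1 and 98.97 percent in the tlr2+/+ libraries.

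The eEF1B complex, which recharges eEF1A, has 5 members here, and 4 of 5 had a negative log2 fold change. eef1g (ENSDARG00000056119), the gamma subunit, had 1341, 1486 and 1289 CPM in the tlr2-/- libraries, against 2083, 2219 and 1501 CPM in the tlr2+/+ libraries, and every tlr2-/- library was below every tlr2+/+ library. Its log2 fold change was -0.50 ± 0.36 (SE, unadjusted p = 0.197) and turned to 0.039 against tlr2+/+ replicate 3 alone. In TPM eef1g had 782, 686 and 674 TPM in the tlr2-/- libraries, against 1278, 1217 and 1696 TPM in the tlr2+/+ libraries, with a log2 difference of -0.95 ± 0.21 (SE) in limma-trend, an unadjusted p of 0.000305 and an adjusted p of 0.15, the lowest of its alternatives (1.00 at most). The beta subunit eef1b2 had 858, 705 and 826 TPM in the tlr2-/- libraries, against 863, 1196 and 1196 TPM in the tlr2+/+ libraries, and the delta subunits eef1da and eef1db had 337 to 351 TPM in the tlr2-/- libraries, against 473 to 663 TPM in the tlr2+/+ libraries, and 122 to 206 TPM in the tlr2-/- libraries, against 187 to 429 TPM in the tlr2+/+ libraries. TPM of eef1b2, eef1da and eef1g did not overlap and were lower in tlr2-/- larvae, while CPM of eef1b2, eef1da and eef1db overlapped, with log2 fold changes of 0.031 ± 0.38 (SE), -0.16 ± 0.35 (SE) and -0.17 ± 0.33 (SE). eef1e1, which in mammals is a scaffold protein of the aminoacyl-tRNA synthetase complex rather than an exchange factor, was low, with 1.15, 1.69 and 1.83 CPM in the tlr2-/- libraries, against 2.001, 3.38 and 8.08 CPM in the tlr2+/+ libraries. It did not overlap, and its log2 fold change was -1.53 ± 1.33 (SE, unadjusted p = 0.273).

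Methyltransferases of eEF1A were at the low end. eef1akmt1 (ENSDARG00000040584) had 3.54 to 6.76 CPM in the tlr2-/- libraries, against 3.03 to 6.70 CPM in the tlr2+/+ libraries, with a log2 fold change of -0.016 ± 0.96 (SE), and eef1akmt2 had 0.305 to 5.59 CPM in the tlr2-/- libraries, against 1.44 to 7.20 CPM in the tlr2+/+ libraries, with -0.79 ± 1.44 (SE). Both overlapped between genotypes.

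The main mRNA of eEF2, the translocase, was higher in tlr2-/- larvae on the CPM scale. eef2b (ENSDARG00000100371) had 15993, 18804 and 17010.2 CPM in the tlr2-/- libraries, against 14238, 13866 and 5892 CPM in the tlr2+/+ libraries, so that every tlr2-/- library was higher, and tlr2+/+ replicate 3 was the lowest library. The log2 fold change was 0.61 ± 0.45 (SE, unadjusted p = 0.201). Against tlr2+/+ replicate 3 alone it was 1.72, in a fit where that single library was assumed to vary like the tlr2-/- libraries. Per length the values were 3868, 3651 and 3646 TPM in the tlr2-/- libraries, against 3659, 3212 and 2941 TPM in the tlr2+/+ libraries, which overlapped, with a log2 difference of 0.19 ± 0.16 (SE).

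A second entry named eef2b (ENSDARG00000109247) went the other way at a far lower level, with 11.7, 83.996 and 25.9 CPM in the tlr2-/- libraries, against 92.8, 59.5 and 144 CPM in the tlr2+/+ libraries and a log2 fold change of -1.28 ± 0.65 (SE, unadjusted p = 0.075). tlr2-/- replicate 2 lay above the lowest tlr2+/+ library, so the genotypes overlapped. The 2 entries share a symbol, so that reads may be split between them, and their sum followed the first, at 0.60 (unadjusted p = 0.21). eef2l2 (ENSDARG00000035256), a related gene, had 148, 28.6 and 57.6 CPM in the tlr2-/- libraries, against 83.5, 107 and 130.3 CPM in the tlr2+/+ libraries and a log2 fold change of -0.45 ± 0.51 (SE), with overlap.

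eef2k (ENSDARG00000035835) encodes the kinase that inhibits eEF2. It had 18.02, 22.1 and 17.4 CPM in the tlr2-/- libraries, against 32.3, 27.4 and 45.6 CPM in the tlr2+/+ libraries, and every tlr2-/- library was below every tlr2+/+ library. edgeR gave a log2 fold change of -0.87 ± 0.39 (SE, unadjusted p = 0.044), between -1.03 and -0.63 when each library was left out, and the unadjusted p stayed under 0.05 in 1 of these 6 fits. In TPM it had 5.57, 5.37 and 4.65 TPM in the tlr2-/- libraries, against 10.8, 7.62 and 26.4 TPM in the tlr2+/+ libraries, also without overlap.

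**Figure D4:**
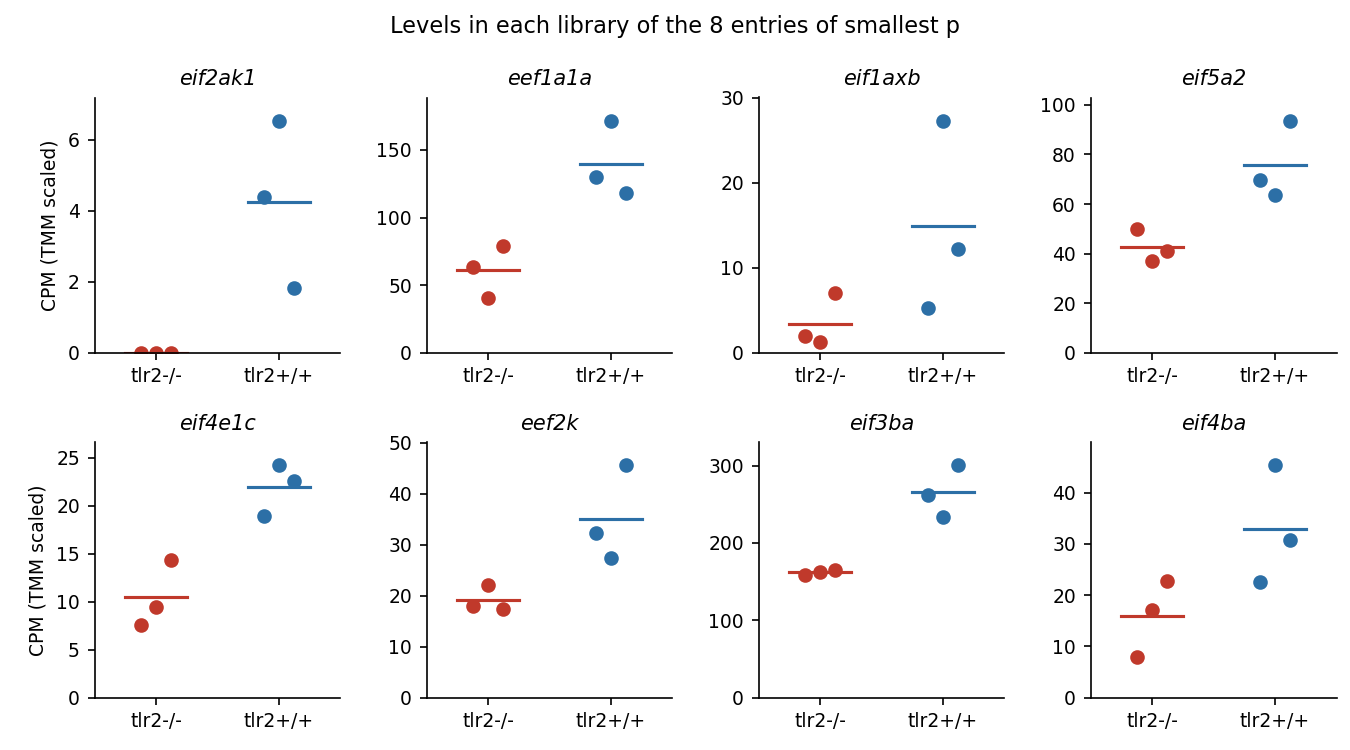
CPM (y axis, linear from 0) in each library of the 8 entries of unadjusted p under 0.05 in edgeR, with tlr2-/- libraries left in red and tlr2+/+ libraries right in blue (points are libraries, lines are means of 3). The entry of eif2ak1 is at 0 in the 3 tlr2-/- libraries, and eef1a1a lies between 40.8 and 79.3 CPM in tlr2-/- larvae, below the 118 to 172 CPM of tlr2+/+ larvae.

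eIF5A, the hypusine-bearing factor that helps ribosomes through difficult stretches such as runs of proline, is made from 2 genes. The minor one, eif5a2 (ENSDARG00000056186), had 49.8, 37.04 and 40.9 CPM in the tlr2-/- libraries, against 69.7, 63.8 and 93.6 CPM in the tlr2+/+ libraries, without overlap. Its log2 fold change was -0.83 ± 0.34 (SE, unadjusted p = 0.0298), and leaving out 1 library kept the unadjusted p under 0.05 in 2 of 6 fits. The major one, eif5a (ENSDARG00000017235), had 1173, 1275 and 904 CPM in the tlr2-/- libraries, against 1095, 1050.2 and 608 CPM in the tlr2+/+ libraries, which overlapped, with 0.28 ± 0.38 (SE, unadjusted p = 0.468). The share of eif5a2 in the summed TPM of both was 1.84, 1.38 and 2.25 percent in the tlr2-/- libraries, against 2.96, 3.77 and 6.78 percent in the tlr2+/+ libraries, lower in every tlr2-/- library, with tlr2+/+ replicate 3 the highest. The mean difference was -2.68 percentage points beside a pooled SD of 1.46, -1.54 without tlr2+/+ replicate 3 and -4.61 on the CPM scale.

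**Figure D5:**
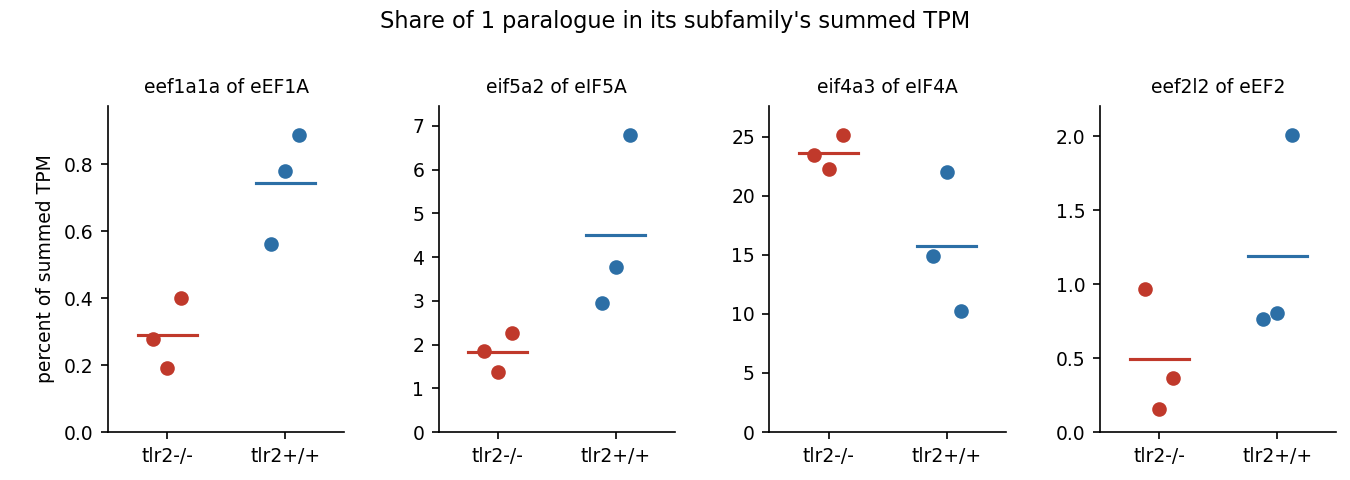
Share of 1 paralogue in the summed TPM of its subfamily (y axis, percent, linear from 0) in each library, with tlr2-/- left in red and tlr2+/+ right in blue (points are libraries, lines are means of 3). The shares of eef1a1a and eif5a2 are lower and that of eif4a3 is higher in every tlr2-/- library, and that of eef2l2 overlaps.

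In the eIF1 and eIF1A class, which reads the start codon, the directions differed. eif1b (ENSDARG00000012688), the class's most abundant member, had 897, 1319.8 and 937 CPM in the tlr2-/- libraries, against 790.4, 731 and 466 CPM in the tlr2+/+ libraries, higher in every tlr2-/- library. The log2 fold change was 0.67 ± 0.38 (SE, unadjusted p = 0.0999), and 1.35 against tlr2+/+ replicate 3 alone. Its levels per length were 717, 823 and 689 TPM in the tlr2-/- libraries, against 692, 549.8 and 677 TPM in the tlr2+/+ libraries, which overlapped. An entry of eif1axb (ENSDARG00000111310) was lower in tlr2-/- larvae, with 1.93, 1.32 and 7.01 CPM in the tlr2-/- libraries, against 5.30, 27.3 and 12.2 CPM in the tlr2+/+ libraries, a log2 fold change of -2.13 ± 0.83 (SE, unadjusted p = 0.0239) and an overlap at tlr2-/- replicate 3. The unadjusted p stayed under 0.05 in 2 of 6 fits that left out 1 library. Summed with the second eif1axb entry (ENSDARG00000057912), the values were 23.2, 17.97 and 23.6 CPM in the tlr2-/- libraries, against 27.6, 43.04 and 35.2 CPM in the tlr2+/+ libraries, without overlap, at -0.71 (unadjusted p = 0.0838). eif1axa had 1.04 to 3.95 CPM in the tlr2-/- libraries, against 0 to 2.83 CPM in the tlr2+/+ libraries, with 1.00 ± 2.04 (SE).

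eIF2 is a trimer, and 2 of its subunit genes did not overlap. The alpha subunit gene eif2s1b (ENSDARG00000052178), whose product is the target of the stress kinases, had 118, 87.9 and 104 CPM in the tlr2-/- libraries, against 191, 126 and 144 CPM in the tlr2+/+ libraries, with a log2 fold change of -0.57 ± 0.34 (SE, unadjusted p = 0.11). The gamma subunit gene eif2s3 (ENSDARG00000008292), the most abundant of the class, had 229, 249 and 275 CPM in the tlr2-/- libraries, against 303, 412 and 326 CPM in the tlr2+/+ libraries, with -0.47 ± 0.33 (SE, unadjusted p = 0.185). In both, each tlr2-/- library was below each tlr2+/+ library. The beta subunit gene eif2s2 had 74.96, 69.1 and 108 CPM in the tlr2-/- libraries, against 43.01, 119 and 105 CPM in the tlr2+/+ libraries, which overlapped, with -0.086 ± 0.41 (SE), and the second alpha gene eif2s1a was scarce, at 2.74 to 3.27 CPM in the tlr2-/- libraries, against 0 to 5.33 CPM in the tlr2+/+ libraries. eif2a (ENSDARG00000101061), an alternative carrier of initiator tRNA, had 39.2 to 45.002 CPM in the tlr2-/- libraries, against 30.01 to 57.995 CPM in the tlr2+/+ libraries, with 0.12 ± 0.38 (SE).

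eIF2B is the exchange factor that recharges eIF2, and its 6 entries for 5 subunits leaned neither way on counts. In limma-trend on TPM 5 of 6 were negative, with a median of -0.38 beside -0.22 for all genes. The entry of lowest p was eif2b1 (ENSDARG00000114640), with 5.79, 13.1 and 14.9 CPM in the tlr2-/- libraries, against 4.77, 3.49 and 3.61 CPM in the tlr2+/+ libraries, higher in every tlr2-/- library, and a log2 fold change of 1.51 ± 0.70 (SE, unadjusted p = 0.0515). With the other eif2b1 entry (ENSDARG00000091402) added, the values were 12.96, 14.2 and 22.7 CPM in the tlr2-/- libraries, against 18.6, 3.49 and 10.8 CPM in the tlr2+/+ libraries, which overlapped. eif2b3 and eif2b4 had 33.7 to 46.7 CPM in the tlr2-/- libraries, against 18.8 to 84.03 CPM in the tlr2+/+ libraries, and 32.3 to 51.2 CPM in the tlr2-/- libraries, against 35.4 to 79.8 CPM in the tlr2+/+ libraries, with log2 fold changes of -0.26 ± 0.49 (SE) and -0.30 ± 0.39 (SE). In both, tlr2+/+ replicate 2 was the highest library, and both signs turned positive without it, at 0.52 and 0.081.

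Kinases of the eIF2 alpha subunit were at the edge of detection, and 1 entry was found in tlr2+/+ larvae alone. This entry of eif2ak1 (ENSDARG00000112267), named for the heme-regulated kinase, had 0, 0 and 0 CPM in the tlr2-/- libraries, against 4.40, 6.54 and 1.81 CPM in the tlr2+/+ libraries, from 132, 118 and 96 reads in the tlr2+/+ libraries and 0 reads in each tlr2-/- library. Against a floor of 3 counts over the group it was at least 65.2-fold lower in tlr2-/- larvae, and 52.4 to 99.1 without 1 of the tlr2+/+ libraries. edgeR gave an unadjusted p of 0.00398 and an adjusted p of 0.9998, and DESeq2's Wald test an adjusted p of 0.00497, the one call of a member in that test. Over the alternatives the adjusted p ran from 0.00497 to 1.00.

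The other entry of eif2ak1 (ENSDARG00000093182) ran in the opposite direction, with 1.01, 1.90 and 3.23 CPM in the tlr2-/- libraries, against 0, 0 and 0.869 CPM in the tlr2+/+ libraries, and each tlr2-/- library was higher. Its log2 fold change was 2.77 ± 2.43 (SE, unadjusted p = 0.275). Summed over both entries, eif2ak1 had 1.01, 1.90 and 3.23 CPM in the tlr2-/- libraries, against 4.40, 6.54 and 2.68 CPM in the tlr2+/+ libraries, which overlapped, with -1.15 (unadjusted p = 0.358), so the summed CPM held no such separation. On the TPM scale the sum was lower in every tlr2-/- library, at 0.314, 0.460 and 0.918 TPM, all from ENSDARG00000093182. In the tlr2+/+ libraries ENSDARG00000112267 alone had 2.65, 3.35 and 1.75 TPM. Of all genes tested, 12.9% were lower without overlap in TPM. eif2ak3, the kinase of endoplasmic reticulum stress, had 0.597, 3.004 and 2.68 CPM in the tlr2-/- libraries, against 4.40, 1.83 and 3.36 CPM in the tlr2+/+ libraries, with -0.61 ± 1.44 (SE) and overlap, and eif2ak2, named for the kinase activated by double-stranded RNA, had 1 read, in tlr2+/+ replicate 3.

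eIF3, the largest initiation factor, has 18 entries, of which 17 were tested and 11 were negative. eif3ba (ENSDARG00000059654), for the core subunit b, had 159, 162 and 164 CPM in the tlr2-/- libraries, against 262, 234 and 300.4 CPM in the tlr2+/+ libraries. The tlr2-/- libraries were close together and all below the tlr2+/+ libraries, with a log2 fold change of -0.71 ± 0.32 (SE, unadjusted p = 0.0469). It stayed between -0.80 and -0.60 when each library was left out, but the unadjusted p was under 0.05 in only 1 of these 6 fits.

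The subunit e gene eif3eb (ENSDARG00000113466) had 148, 97.5 and 170.1 CPM in the tlr2-/- libraries, against 238, 219 and 209 CPM in the tlr2+/+ libraries, without overlap, at -0.68 ± 0.34 (SE, unadjusted p = 0.0697). Its second entry (ENSDARG00000002549) was far lower, with 1.84, 8.43 and 4.27 CPM in the tlr2-/- libraries, against 9.70, 23.1 and 6.10 CPM in the tlr2+/+ libraries, and had a log2 fold change of -1.42 ± 0.76 (SE, unadjusted p = 0.0851). The sum of the 2 entries was lower in every tlr2-/- library, at -0.71 (unadjusted p = 0.0552). eif3s6ip, for subunit l, also did not overlap, with 140, 120 and 175 CPM in the tlr2-/- libraries, against 192, 195 and 198 CPM in the tlr2+/+ libraries and -0.43 ± 0.33 (SE), and was chosen after its values were seen. In contrast eif3f (ENSDARG00000077533), the most abundant subunit mRNA, had 442, 495 and 489 CPM in the tlr2-/- libraries, against 346, 430 and 261 CPM in the tlr2+/+ libraries, and each tlr2-/- library was higher, at 0.46 ± 0.35 (SE, unadjusted p = 0.21). eif3g was the other subunit higher in every tlr2-/- library on the CPM scale, at 0.29 ± 0.33 (SE), likewise named after its values were seen. On the TPM scale both overlapped, and 8 of 17 eIF3 entries were lower without overlap, on a scale where 12.9% of all genes were.

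The eIF3 subunits form 1 complex, but their mRNA levels per length spanned a wide range. The highest was eif3f, with 519 ± 41.1 TPM in tlr2-/- larvae and 513 ± 90.05 TPM in tlr2+/+ larvae, followed by eif3m, with 261 ± 19.7 and 323 ± 47.8 TPM, eif3i, with 216 ± 27.7 and 353 ± 69.9 TPM, and eif3g, with 221 ± 26.5 and 251 ± 54.6 TPM (SD, n = 3 each). In each tlr2+/+ library eif3g was below eif3m and eif3i, whose order differed between libraries. In each tlr2-/- library eif3m was above eif3i and eif3g, and the order of eif3i and eif3g differed between libraries. The large scaffold subunit a, eif3s10, reached 13.3 ± 2.71 TPM in tlr2-/- larvae and 22.5 ± 19.7 TPM in tlr2+/+ larvae, and of the paralogue pairs eif3ha had 111 ± 18.9 TPM in tlr2-/- larvae and 159 ± 31.6 TPM in tlr2+/+ larvae beside 6.68 ± 2.85 TPM in tlr2-/- larvae and 13.2 ± 2.44 TPM in tlr2+/+ larvae for eif3hb.

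eIF4A is the helicase that unwinds the leader of the mRNA, and eIF4B and eIF4H assist it. Of this class 7 of 9 tested entries were negative. eif4ba (ENSDARG00000017439) had 7.86, 17.02 and 22.8 CPM in the tlr2-/- libraries, against 22.6, 45.3 and 30.7 CPM in the tlr2+/+ libraries, which overlapped by a narrow margin between tlr2-/- replicate 3 and tlr2+/+ replicate 1. Its log2 fold change was -1.05 ± 0.48 (SE, unadjusted p = 0.048), and the unadjusted p stayed under 0.05 in 2 of 6 fits that left out 1 library. A second eif4ba entry (ENSDARG00000117080) had 304 reads, all in tlr2+/+ replicate 1.

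Both eif4a2 (ENSDARG00000016477), with 27.4, 33.9 and 24.9 CPM in the tlr2-/- libraries, against 55.9, 37.7 and 49.1 CPM in the tlr2+/+ libraries, and eif4a1a (ENSDARG00000092115), with 209.7, 209.7 and 256 CPM in the tlr2-/- libraries, against 325, 257 and 282 CPM in the tlr2+/+ libraries, were lower in every tlr2-/- library. Their log2 fold changes were -0.73 ± 0.36 (SE, unadjusted p = 0.0634) and -0.35 ± 0.33 (SE, unadjusted p = 0.301). The most abundant of the class, eif4a1b (ENSDARG00000003032), had 322, 335 and 363 CPM in the tlr2-/- libraries, against 472, 373 and 348 CPM in the tlr2+/+ libraries, with -0.23 ± 0.33 (SE) and overlap, and without tlr2+/+ replicate 1 its fold change was 0.0070. eif4a3, whose product belongs to the exon junction complex left by splicing rather than to cap-dependent initiation, had 238, 222 and 287 CPM in the tlr2-/- libraries, against 224, 248 and 126 CPM in the tlr2+/+ libraries. Its share of the summed eIF4A TPM was 23.5, 22.3 and 25.1 percent in the tlr2-/- libraries, against 14.9, 22.02 and 10.3 percent in the tlr2+/+ libraries, higher in every tlr2-/- library by 7.90 percentage points on average beside a pooled SD of 4.30, though tlr2-/- replicate 2 and tlr2+/+ replicate 2 lay close.

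eIF4E binds the cap, and its mRNAs were scarce, with a class sum of 18.96, 14.96 and 19.8 TPM in the tlr2-/- libraries, against 31.7, 26.3 and 81.4 TPM in the tlr2+/+ libraries. eif4e1c (ENSDARG00000012274), the most abundant of them, had 7.58, 9.49 and 14.3 CPM in the tlr2-/- libraries, against 18.97, 24.2 and 22.6 CPM in the tlr2+/+ libraries, without overlap. Its log2 fold change was -1.07 ± 0.47 (SE, unadjusted p = 0.0407), and 2 of 6 fits that left out 1 library kept the unadjusted p under 0.05. With the second entry (ENSDARG00000116158) the sum was 9.47, 11.2 and 14.3 CPM in the tlr2-/- libraries, against 25.01, 24.2 and 22.6 CPM in the tlr2+/+ libraries, also without overlap, at -1.04 (unadjusted p = 0.0311). eif4e2rs1 and eif4e3 had log2 fold changes of -0.60 ± 0.78 (SE) and 0.86 ± 1.12 (SE), and both overlapped. eif4e1b, the cap-binding protein of oocytes, had 23 reads, all in tlr2-/- replicate 2. In the share of summed eIF4E TPM, eif4e1c (ENSDARG00000012274) had 24.1, 29.6 and 60.9 percent in the tlr2-/- libraries, against 45.02, 54.2 and 68.3 percent in the tlr2+/+ libraries, which overlapped.

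The partners of eIF4E are its inhibitors, the eIF4E-binding proteins, and its nuclear transporter eif4enif1. The genotypes overlapped in CPM for all 5 tested entries. The inhibitor gene eif4ebp2 (ENSDARG00000031819) had 37.04, 27.98 and 22.9 CPM in the tlr2-/- libraries, against 0.267, 2.33 and 34.7 CPM in the tlr2+/+ libraries. tlr2+/+ replicates 1 and 2 stood apart from the other 4 libraries, and the log2 fold change was 1.23 ± 1.39 (SE, unadjusted p = 0.405) with all libraries but -0.075 against tlr2+/+ replicate 3 alone. eif4ebp1 (ENSDARG00000043608), the classic target of mTOR, had 55.01, 59.7 and 65.4 CPM in the tlr2-/- libraries, against 69.1, 74.1 and 53.7 CPM in the tlr2+/+ libraries, at -0.13 ± 0.32 (SE). Per length it was lower in every tlr2-/- library, with 41.5, 35.1 and 44.8 TPM in the tlr2-/- libraries, against 92.4, 53.1 and 85.1 TPM in the tlr2+/+ libraries. eif4ebp3 and eif4ebp3l (the class's most abundant per length) had 0.22 ± 0.49 (SE) and 0.092 ± 0.40 (SE), and both signs turned negative on the TPM scale and without tlr2+/+ replicate 3.

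eIF4G joins the cap-binding protein, the helicase and eIF3, and 6 of 7 entries were negative. The eif4g2 genes encode a form that lacks the eIF4E-binding part. eif4g2a (ENSDARG00000020377) had 16.3, 17.1 and 19.1 CPM in the tlr2-/- libraries, against 36.4, 15.1 and 44.6 CPM in the tlr2+/+ libraries, at -0.88 ± 0.45 (SE, unadjusted p = 0.0768), with an overlap at tlr2+/+ replicate 2. eif4g2b (ENSDARG00000057167), the most abundant of the class per length, had 38.9, 42.999 and 69.9 CPM in the tlr2-/- libraries, against 36.8, 67.7 and 97.6 CPM in the tlr2+/+ libraries, which overlapped, at -0.41 ± 0.42 (SE, unadjusted p = 0.338). In TPM it had 8.16, 7.19 and 13.4 TPM in the tlr2-/- libraries, against 20.01, 18.8 and 60.9 TPM in the tlr2+/+ libraries, without overlap. There the log2 difference was -1.53 ± 0.50 (SE) in limma-trend, with an adjusted p of 0.39, and 12.9% of all genes tested were lower without overlap. The second eif4g2b entry (ENSDARG00000112658) had -0.61 ± 0.67 (SE), positive at 0.31 without tlr2+/+ replicate 3. The class summed to 34.6, 25.7 and 37.6 TPM in the tlr2-/- libraries, against 48.6, 45.8 and 150.5 TPM in the tlr2+/+ libraries, and tlr2+/+ replicate 3 was far above the rest.

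Factors of subunit joining leaned neither way on counts. In limma-trend on TPM 3 of 3 were negative, with a median of -0.50 beside -0.22 for all genes. eif5, which triggers GTP hydrolysis by eIF2, had 140.3, 189 and 239 CPM in the tlr2-/- libraries, against 181, 253 and 186 CPM in the tlr2+/+ libraries, at -0.13 ± 0.35 (SE). eif5b, the GTPase of subunit joining, had 40.996, 46.1 and 64.3 CPM in the tlr2-/- libraries, against 28.1, 33.01 and 42.7 CPM in the tlr2+/+ libraries, at 0.54 ± 0.36 (SE, unadjusted p = 0.159). Per length it had 11.4, 10.1 and 6.16 TPM in the tlr2-/- libraries, against 5.21, 20.7 and 19.9 TPM in the tlr2+/+ libraries, with a log2 difference of -0.50 ± 0.55 (SE). eif6, which keeps the large subunit from joining too early, had 30.3, 27.03 and 38.97 CPM in the tlr2-/- libraries, against 16.9, 54.7 and 24.9 CPM in the tlr2+/+ libraries, at -0.0029 ± 0.45 (SE). All 3 overlapped between genotypes.

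Entries found in 1 genotype were mostly second entries of a symbol. There were 6, 5 with reads in tlr2+/+ libraries and 1 in a tlr2-/- library. How many of all entries had reads in 1 genotype alone was not counted, so this split is not read as a result about the members. eif1ad (ENSDARG00000110436), named for its likeness to eIF1A, had 34, 262 and 0 reads in the tlr2+/+ libraries and 0 in the others, at least 55.8-fold lower in tlr2-/- larvae over the floor of 3 counts in the group, but at least 7.81-fold without tlr2+/+ replicate 2. As tlr2+/+ replicate 3 was also at 0, the genotypes overlapped. The other eif1ad entry (ENSDARG00000016280) had a log2 fold change of 0.097 ± 1.77 (SE). Summed over both entries, eif1ad had 4.23, 1.84 and 0.427 CPM in the tlr2-/- libraries, against 1.40, 15.3 and 4.97 CPM in the tlr2+/+ libraries, which overlapped. A second eef1akmt1 entry (ENSDARG00000114813) had 17 reads, all in tlr2+/+ replicate 3. The other 8 untested members, eif3bb, both eif4ea entries and second or minor entries of eif4ebp1, eef1a2, eef2a.1, eef2a.2 and eef2kmt, had reads in both genotypes, at most 123 in a library. Of the 17 symbols with 2 entries, the sums were lower in every tlr2-/- library for 5 (eif1axb, eif3eb, eif4a1b, eif4ba and eif4e1c) and higher for 1, eef2b. Of all genes tested as single entries, 6.2% were lower and 6.87% higher without overlap in CPM. The share over all summed symbols was not counted.

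Several transcripts made up 44 members with reads in every library, and the same transcript led in all 6 libraries for 24 of them. The share of the leading transcript in the member's TPM did not overlap between genotypes for 1 of the 44, eif4g2b (ENSDARG00000057167), where it was 100, 100 and 100 percent in the tlr2-/- libraries, against 39.8, 71.2 and 60.1 percent in the tlr2+/+ libraries. How often such shares did not overlap over all genes was not counted, so 1 of 44 is not read as a result about the members. Abundant members differed in this share, which was 99.3 to 99.7% for eef1a1l1, 57.7 to 90.7% for eef1b2 and 39.3 to 57.7% for eif5a over the 6 libraries. The delta subunit gene eef1db, whose mammalian counterpart is known for a long and a short form, had a leading share of 47.8, 54.4 and 50.3 percent in the tlr2-/- libraries, against 50.01, 54.9 and 52.03 percent in the tlr2+/+ libraries, which overlapped. These shares come from estimated counts of transcripts that share exons.

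Genes that act beside these factors were counted from fixed lists, and 0 of their tested entries passed an adjusted p under 0.05 in edgeR. Among factors of termination and recycling 7 of 10 were negative, with a median of -0.48, beside 0.024 for all genes. The median was -0.87 in limma-trend on TPM, beside -0.22 for all genes. At an unadjusted p under 0.05, 2 were lower, beside 1.99% of all genes, and 0 higher, beside 1.73%. The 2 lower ones were abce1, which splits the terminated ribosome, with 41.5, 24.4 and 48.3 CPM in the tlr2-/- libraries, against 74.1, 114 and 83.7 CPM in the tlr2+/+ libraries and -1.25 ± 0.37 (SE, unadjusted p = 0.00523), and gspt1l, named for release factor 3, with 44.9, 38.2 and 42.1 CPM in the tlr2-/- libraries, against 66.3, 55.7 and 92.6 CPM in the tlr2+/+ libraries and -0.78 ± 0.34 (SE, unadjusted p = 0.0421). Neither overlapped.

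Of the poly(A) binding proteins and their partners 6 of 7 were negative, with a median of -0.28. Against tlr2+/+ replicate 3 alone the median was 0.11, beside -0.083 for all genes. At an unadjusted p under 0.05, 2 of the 7 were lower, beside 1.99% of all genes, and 0 higher, beside 1.73%. paip1, which bridges the poly(A) binding protein and eIF3 or eIF4A in mammals, had 8.46, 5.69 and 9.45 CPM in the tlr2-/- libraries, against 40.2, 18.7 and 24.3 CPM in the tlr2+/+ libraries, without overlap, at -1.82 ± 0.49 (SE, unadjusted p = 0.00261). A second entry of pabpc4 (ENSDARG00000111312) had 0, 0 and 0 CPM in the tlr2-/- libraries, against 5.44, 7.37 and 29.4 CPM in the tlr2+/+ libraries, with an edgeR adjusted p of 0.101. Its adjusted p ran from 1.16e-07 (DESeq2) to 0.9997 (both entries summed) over its alternatives and passed the threshold in DESeq2, with no filter, with the replicate block, against tlr2+/+ replicate 3 alone and without tlr2+/+ replicate 1, tlr2-/- replicate 1 or tlr2-/- replicate 3. The main pabpc4 entry (ENSDARG00000059259) had 256, 364 and 299.9 CPM in the tlr2-/- libraries, against 254, 534 and 320.2 CPM in the tlr2+/+ libraries and overlapped. Like abce1 of the termination and recycling list, both paip1 and the second pabpc4 entry were among the altered genes the study listed from these same libraries. The directions of abce1, paip1 and this pabpc4 entry are therefore not independent evidence.

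In the list of controls of initiation (mTOR and its targets, kinases of eIF4E, Atf4 and the like) 5 of 17 were negative and the median was 0.23, with 0 at an unadjusted p under 0.05. The median was -0.18 in limma-trend on TPM, with 10 of 17 negative, beside -0.22 and 65% negative for all genes. Against tlr2+/+ replicate 3 alone the median was -0.092, beside -0.083 for all genes. Its sign thus depended on the scale and the control library, and in both these fits it lay near the median of all genes. The 2 of smallest p were impact, an inhibitor of the kinase Gcn2 in mammals and yeast, at -1.50 ± 0.85 (SE, unadjusted p = 0.102), and larp1, which binds TOP mRNAs, at 0.78 ± 0.45 (SE, unadjusted p = 0.107). The hypusine enzymes dhps and dohh, which modify eIF5A, had -0.74 ± 0.54 (SE, unadjusted p = 0.192) and 1.18 ± 1.37 (SE, unadjusted p = 0.419) in their tested entries. The tested dohh entry had 20.5, 32.5 and 22.3 CPM in the tlr2-/- libraries, against 16.04, 0 and 17.2 CPM in the tlr2+/+ libraries. A second, untested dohh entry (ENSDARG00000116423) had 468 reads, or 25.9 CPM, all in tlr2+/+ replicate 2, so that reads may be split between the entries. Of the mitochondrial translation factors 7 of 9 were negative, with a median of -0.27. That median was -0.67 without tlr2-/- replicate 2, -0.60 without tlr2-/- replicate 3 and -0.56 on TPM, where that of all genes was -0.22. In this list mtrf1 and gfm2 had the smallest p, at 1.81 ± 1.52 (SE, unadjusted p = 0.256) and -0.95 ± 0.95 (SE, unadjusted p = 0.334).

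Cytosolic ribosomal proteins, the other abundant part of the translation machinery, lay on the other side. Their log2 fold change was negative for 7 of 86 entries, with a median of 0.55, 9 higher and 0 lower at an unadjusted p under 0.05, beside 1.73% and 1.99% of all genes, and 28 higher without overlap in CPM, beside 6.87% of all genes. On the log2(TPM + 1) scale 33 of 86 were negative and the median was 0.13. Against all genes, whose median was 0.024 on counts and -0.22 on TPM, the ribosomal proteins thus lay above and the factors below on both scales. Without tlr2+/+ replicate 3 the ribosomal median was 0.31 in edgeR, beside 0.21 for all genes and -0.18 for the factors. The difference between the 2 lists was not tested, and the study had already listed sets of both kinds from these same libraries.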

How the data were processed

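Per transcript, the deposited estimated counts and TPM came from Salmon 1.2.1 against GRCz11, run by the authors on 150 nt reads of oligo-dT selected, directional libraries. Options and annotation release were not given in the sources read here. For each gene the authors deposited a mean signal, the average of counts over DESeq2 1.24.0 normalization factors, beside fold changes and s-values of their own comparison, which were not used.

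Transcripts were assigned to genes by finding the run of at most 40 adjacent rows that returns the gene's deposited mean (tolerance 1e-12), which placed 21079 of 23956 genes. Another 2873 genes with reads in 1 library were solved from the mean and not tested. They were left out of every fit, also of that with the entries of a symbol summed. Summed, rounded counts were filtered with filterByExpr, scaled with TMM and tested over the 6 libraries with the robust quasi-likelihood fit of edgeR 4.0.16 on genotype alone. SE is the log2 fold change over the square root of F. Further tools were limma 3.58.1, DESeq2 1.42.0, R 4.3.3 and Python 3.11.15, and the fits were tested on simulated data. Sequences, TOP promoter starts and coordinates were not analysed here.

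Members, role classes and lists were chosen with earlier results of these data known, so lists get counts and medians but no p. The genes named were the 3 of smallest p and the one of highest TPM in each role class, every member at an unadjusted p under 0.05, eef1a1a, those with reads in 1 genotype and, of each list except the ribosomal proteins, those at an unadjusted p under 0.05 or else the 2 of smallest p. Further members were named to complete a complex, or for their share, level or overlap, after their values were seen. Alternatives covered scaling (RLE), the filter (none, or mean CPM from 1 upward), offsets for length, symbols summed over entries, DESeq2, limma-trend on log2(TPM + 1), the replicate block, each library left out in turn, and tlr2+/+ replicate 3 as sole control. The counts without tlr2+/+ replicate 3 and the limma fit without it were added after the data were seen.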

Additional observations from a re-analysis of the deposited data

How the results depend on the processing

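Of 928 values of 58 named genes and partners under the alternatives, 861 kept direction and side of the threshold, 55 changed sign and 12 passed an adjusted p under 0.05 (7 of these for the second pabpc4 entry), and the cause was not tested. With RLE scaling came sign changes for eif6 (0.018), eef1akmt1 (0.014). With length offsets came -0.012 for eif2. Signs changed there for eif4ebp3l (-0.014), eif5b (-0.25), eif6 (0.0073), eef1akmt1 (0.041). With the entries of a symbol summed came sign changes for eif2ak1 (ENSDARG00000093182) (-1.15), eef2b (ENSDARG00000109247) (0.60). With DESeq2's Wald test came 1 member called lower. Signs changed there for eif6 (0.017), eef1akmt1 (0.016). With limma-trend on log2(TPM + 1) came 24 members at an unadjusted p under 0.05, a median of -0.59 for all members, -0.70 for eif3, -0.62 for eif4 and -0.68 for eef1. Signs changed there for eif2a (-0.28), eif4ebp3 (-0.17), eif4ebp3l (-0.51), eif5a (-0.13), eif5b (-0.50), eef1a1l1 (-0.30). With the replicate number as a block came 1 member called lower, a median of -0.12 for all members and 0.11 for eif2. Signs changed there for eif6 (0.17). With tlr2+/+ replicate 3 alone came 2 members called higher, 21 members at an unadjusted p under 0.05, 0.76 for eif2b, -0.065 for eif3 and 0.039 for eef1. Signs changed there for eif1axa (-0.12), eif2b3 (1.19), eif2b4 (0.049), eif4ebp1 (0.33), eif4ebp2 (-0.075), eif4a1b (ENSDARG00000003032) (0.13), eif5 (0.20), eif6 (0.53), eef1akmt1 (0.26), eef1akmt2 (0.87), eef1g (0.039). With limma-trend on TPM without tlr2+/+ replicate 3 (chosen after the data were seen) came 16 members at an unadjusted p under 0.05, a median of -0.35 for all members, -0.41 for eif3 and -0.39 for eif4. Signs changed there for eif2a (-0.12), eif4ebp3 (-0.39), eif4ebp3l (-0.46), eif4g2b (ENSDARG00000112658) (0.14), eif5a (-0.17), eif5b (-0.22), eef1a1l1 (-0.26). With CPM in place of TPM came a mean share difference of -4.61 percentage points for eif5a2. Leaving out 1 library at a time gave medians of -0.27 to 0.30 for eif2b, medians of -0.52 to -0.10 for eef1, 4 to 12 members at an unadjusted p under 0.05 and medians of -0.27 to -0.16 for all members. The named genes whose sign changed when 1 library was left out ranged over -0.62 to 0.52 for eif2b3, -0.45 to 0.081 for eif2b4, -0.023 to 0.51 for eif2a, -0.16 to 0.76 for eif4ebp3, -0.13 to 0.60 for eif4ebp3l, -0.30 to 0.0070 for eif4a1b (ENSDARG00000003032), -0.99 to 0.31 for eif4e2rs1, -1.04 to 0.31 for eif4g2b (ENSDARG00000112658), -0.33 to 0.049 for eif5, -0.24 to 0.61 for eif6, -0.39 to 0.32 for eef1akmt1, -0.075 to 0.39 for eef1a1l1. The labels number the replicates of both genotypes, but same-numbered samples did not deviate together (correlations of 0.00184, 0.0438 and 0.0566 over the deviations of genes, the number shared without a stated pairing), and the fit with the replicate block called 64 genes in all, against 1 without the block. Of 86 members among the 16776 genes tested with the block, the 1 member called was the second eef2b entry (ENSDARG00000109247, adjusted p = 0.0287 in edgeR). Where tlr2+/+ replicate 3 alone was the control, the log2 fold changes of eif1b and eef2b (ENSDARG00000100371) were 1.35 and 1.72. The median of all genes was -0.22 in limma-trend on TPM and 0.33 with the block, and relative to all genes the median of the members stayed between -0.45 and -0.074 in every fit. Depth limits the eIF2 kinases, eif4e, eef1a2 and eef2a entries, which hold few reads.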
